A study of Mus musculus with 4 samples.

Results

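Nuclei with more than 5000 detected genes were the barcodes with the most genes in 4 single-nucleus RNA libraries from whole mouse testis, and they lay just beyond the upper gene limit at which the study's own quality control stopped. They were chosen from the measured values, as barcodes with at least 1 UMI (unique molecular identifier, a count of 1 captured RNA molecule) in more than 5000 genes and at most 25% of UMIs in mitochondrial genes. The rule found 534 such barcodes among 44159 barcodes of 500 genes or more. WT replicate 1 held 13, WT replicate 2 held 15, Dhx37-/- replicate 1 held 204 and Dhx37-/- replicate 2 held 302. The mitochondrial limit removed 0 of them.

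The study compared wild-type males with Dhx37-/- males, both 8 weeks old by the labels, with 2 biological replicates per genotype. Dhx37 encodes a DEAH-box RNA helicase, and the knockout was conditional: mice of a C57BL/6-based line with loxP sites around exon 2 were crossed with Amh-Cre transgenic mice. The Amh promoter is active in Sertoli cells, so the deletion was designed to leave germ cells and the other cells of these testes unchanged, which was not checked here. How many animals went into a library was not given in the sources used here, and p-values measure only the spread between libraries.

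In the adult testis, Sertoli cells nurse germ cells that pass from spermatogonia through meiotic prophase to round and then elongating spermatids. Pachytene is the long stage of meiotic prophase in which paired chromosomes recombine, autosomal transcription is high and the X and Y chromosomes are transcriptionally silenced. The number of genes seen in a droplet depends on how much RNA a nucleus holds, on sequencing depth, and on whether 2 nuclei shared the droplet (a doublet).

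The 4 libraries held 51797891 to 75611263 UMIs. Barcodes of 3000 genes or more were more frequent in both Dhx37-/- libraries (16.9% ± 3.01 of barcodes of 500 genes or more, SD, n = 2) than in the WT libraries (6.49% ± 2.74, SD, n = 2), so the whole upper range of the distribution was fuller there. No barcode sequence above 5000 genes was shared between any pair of libraries, against 26 to 44 shared per pair among barcodes of 500 genes or more. These counts cannot be compared, since libraries held 13 to 302 members and 8656 to 12713 barcodes of 500 genes or more.

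Above 5000 genes stood 0.102% of the barcodes in WT replicate 1 (exact Clopper-Pearson 95% interval 0.0545 to 0.175%) and 0.173% in WT replicate 2 (0.097 to 0.286%). In Dhx37-/- replicate 1 the share was 1.86% (1.61 to 2.13%) and in Dhx37-/- replicate 2 it was 2.56% (2.28 to 2.86%). Every Dhx37-/- library lay above both WT libraries, by 2.07 percentage points between the means (0.138% ± 0.0502 in WT and 2.21% ± 0.494 in Dhx37-/-, SD, n = 2 each). Because the number of genes is what chose the nuclei, these shares are a description with no test, and here as elsewhere the intervals cover counting error only. Of barcodes of 3000 genes or more, 2.25% and 2.06% exceeded 5000 in WT and 12.6% and 13.4% in Dhx37-/-.

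**Figure D1:**
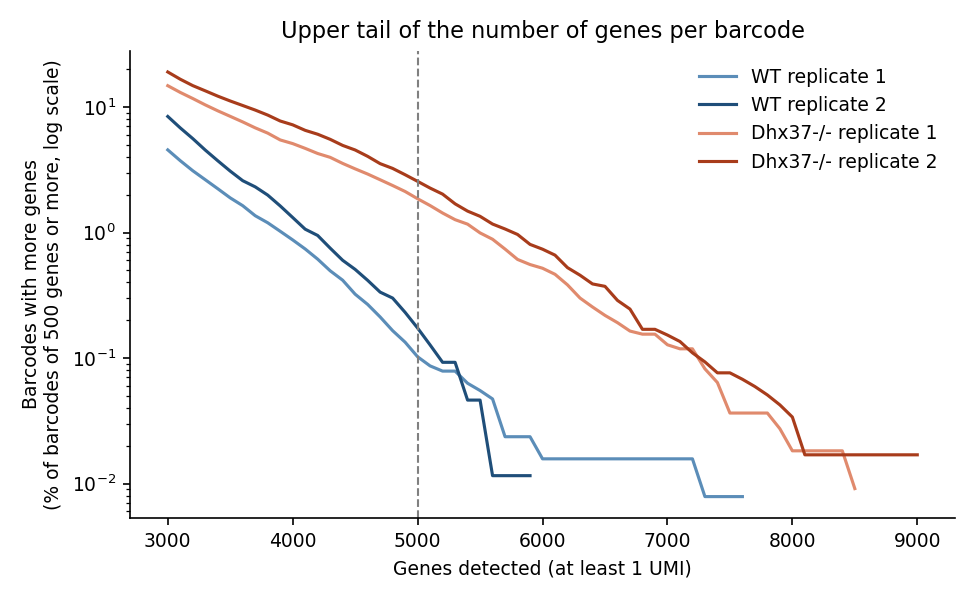
Share of barcodes of 500 genes or more (y axis, percent, log scale) that have more detected genes than the value on the x axis, with 1 line per library and the limit of 5000 genes as a dashed line. Both Dhx37-/- lines lie above both WT lines from 3000 to 8500 genes, and at 5000 genes they stand at 1.86% and 2.56% against 0.102% and 0.173%.

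The limit cut through a smooth tail. The last 100 gene counts up to the limit held 4, 5, 29 and 39 barcodes, with the WT libraries first and replicate 1 before replicate 2, and the next 100 held 2, 4, 24 and 35. The members had a median of 15246, 13091, 15270 and 15683.5 UMIs in the same order, against 7040.5, 6664, 7167 and 7287 UMIs for nuclei of 3000 to 5000 genes. Once each nucleus was thinned at random to 5000 UMIs, the members showed a median of 2844, 2971, 2921 and 2871 genes and nuclei of 3000 to 5000 genes 2736, 2849, 2832 and 2811. As deposited their median was 5304 to 5582 genes against 3321.5 to 3537. Gene number is what chose the members, so these medians are a description. The barcode with most genes, 13247 from 72882 UMIs, came from Dhx37-/- replicate 2 and fell among the elongating spermatid-like nuclei.

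To find what these nuclei were, all barcodes of 3000 genes or more were thinned to 5000 UMIs, clustered together into 15 clusters, and each cluster was named only from marker genes, as X-like. Of the 534 members, 194 were pachytene to diplotene spermatocyte-like, 130 Sertoli-like, 92 elongating spermatid-like, 41 early meiotic prophase-like, 29 round spermatid-like, 23 Leydig-like and 6 spermatogonia-like. A further 19 fell into a cluster that mixed fibroblast, macrophage and smooth muscle genes (Dcn, F13a1, Myh11, Acta2) and stayed unnamed. No member was too shallow for thinning.

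The genotypes differed most in the spermatocyte-like members. In WT replicate 1 they were 0 of 13 members (0% of members, interval 0 to 24.7%), and in WT replicate 2 they were 1 of 15 (6.67%, 0.169 to 31.9%). In Dhx37-/- replicate 1 they were 63 of 204 (30.9%, 24.6 to 37.7%) and in Dhx37-/- replicate 2 they were 130 of 302 (43.0%, 37.4 to 48.8%). The means were 3.33% ± 4.71 in WT and 37.0% ± 8.6 in Dhx37-/- (SD, n = 2 each), and the groups did not overlap (two-sided exact permutation p = 0.33, and no smaller value is possible with 2 libraries a genotype). Of nuclei of 3000 to 5000 genes, the same class made up 12.6% and 14.5% in WT and 20.7% and 16.9% in Dhx37-/-. In Dhx37-/-, 52 of the 63 and 119 of the 130 members fell in a single cluster that held 2 WT nuclei in all. The other clusters of the class held nuclei of both genotypes, as given further on.

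Elongating spermatid-like nuclei took the opposite place, with 30.8% and 33.3% of members in WT against 39 of 204 and 44 of 302 in Dhx37-/- (mean 16.8% ± 3.22, n = 2, exact permutation p = 0.33, groups apart). The genotypes differed in the same direction below the limit. Among the clustered nuclei there, this class made up 35.0 and 32.4% in WT and 22.4 and 20.4% in Dhx37-/-. Without barcodes that Scrublet called as doublets, the order of the means among members turned for this class. Scrublet called 4 of 4, 5 of 5, 27 of 39 and 33 of 44 of these members. Of the 92, 74 lay in a cluster where it called 91.08% of all nuclei. The elongating spermatid markers made up 0.747, 0.585, 1.06 and 0.765% of their UMIs, and also 0.451, 0.892 and 0.834% in the round spermatid-like members of WT replicate 2 and the Dhx37-/- libraries, so that list did not separate these classes. Sertoli-like nuclei made up 46.2% and 6.67% of WT members, which was 6 and 1 nuclei, and 27.9% and 21.9% of Dhx37-/- members, so the WT libraries lay on both sides (exact permutation p = 1.0). Early meiotic prophase-like nuclei were 1, 0, 9 and 31 members, round spermatid-like nuclei 0, 6, 12 and 11, and Leydig-like nuclei 2, 0, 9 and 12, with overlapping shares.

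**Figure D2:**
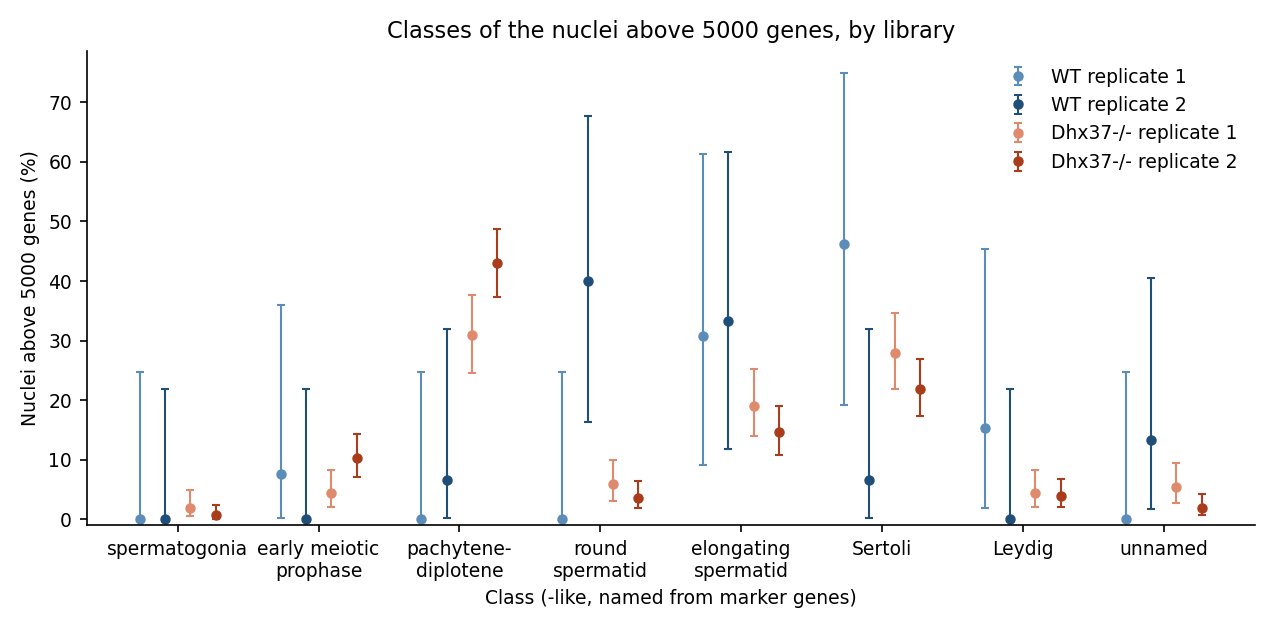
Share of the nuclei above 5000 genes in each class (y axis, percent of the library's members), by library, with exact 95% intervals that cover counting error only. Pachytene to diplotene-like nuclei make up 30.9% and 43.0% of the Dhx37-/- members and 0% and 6.67% of the WT members, and the WT intervals are wide because these libraries hold 13 and 15 members.

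Sertoli and Leydig markers were far higher in the members named for them than in any other class. Germ cell markers were shared between classes, in part with the Sertoli-like and Leydig-like classes, as given further on. Levels here are CPM, the UMIs of a gene scaled to the summed UMIs of a library's members of a class. Genes were used to form the clusters, so these levels describe the classes and carry no test.

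Most spermatocyte-like members belonged to a single cluster, led by 4933400L20Rik, Catsperd, 4930581F22Rik, Magi2, Gm14244 and Macrod2. Its raised spermatocyte markers were Piwil1, Mybl1, Ccna1, Pou5f2, Ybx3, Brdt and Nek2, which is 7 of 12. This Magi2-high cluster held 325 nuclei, of which 171 (52.6%) had more than 5000 genes, the highest share among the 15 clusters. Of the 325, 323 came from the Dhx37-/- libraries, where 53.1% and 52.9% exceeded the limit. The remaining spermatocyte-like clusters held WT and Dhx37-/- nuclei alike and had 1.99% and 5.41% of their nuclei above the limit. The first was named from only 3 of the 12 markers (Mybl1, Ccna1 and Nek2) and the second from 8, Piwil1 and Brdt among them, and their nuclei are pooled in the levels given here.

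In members of the Magi2-high cluster, Piwil1, the PIWI protein that carries pachytene piRNAs, stood at 369 CPM in Dhx37-/- replicate 1 and 444 CPM in Dhx37-/- replicate 2. In nuclei of 3000 to 5000 genes of the other spermatocyte-like clusters it stood at 154 and 153 CPM in WT and 176 and 191 CPM in Dhx37-/-. Ybx3, a germ cell Y-box nucleic acid binding protein, stood at 1320 and 1450 CPM in these members, against 554 to 660 CPM in the other clusters. Both genes were therefore higher in these members than in the other spermatocyte-like clusters, pooled, in any library, while the shallower nuclei of the Magi2-high cluster itself had Piwil1 at 422 and 486 CPM.

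Magi2, a scaffold protein gene, reached 9730 and 9110 CPM in the members of this cluster, against 1390 to 1860 CPM in the other spermatocyte-like clusters. Macrod2, an ADP-ribosylhydrolase gene, stood at 5000 and 5000 CPM against 275 to 408 CPM, and Spata16, needed for acrosome formation, at 2390 and 2330 CPM against 706 to 915 CPM. Catsperd, a subunit of the sperm calcium channel, stood at 1250 and 938 CPM against 66.1 to 113 CPM. Other spermatocyte markers were not raised there. Sycp1, a synaptonemal complex gene, stood at 61.2 and 112 CPM against 139 to 165 CPM. Msh4, a crossover protein gene, stood at 8.89 and 15.7 CPM against 23.3 to 32.9 CPM.

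X-linked genes were low in this cluster. Over all genes that the GENCODE vM21 annotation puts on the X chromosome, members of the Magi2-high cluster had 0.155% and 0.162% of their X-linked and autosomal UMIs there. Sertoli-like members had 3.98, 4.48, 4.53 and 4.63% in the 4 libraries, Leydig-like members 1.98 to 2.45%, and round spermatid-like members 0.775 to 1.12%. Members of the other spermatocyte-like clusters, 3 to 8 nuclei a cluster and library, had 0.394 to 1.28% in the Dhx37-/- libraries, and the single one in WT had 0.0858%, lower than the Magi2-high members. Huwe1, an X-linked ubiquitin ligase gene, stood at 10.9 and 6.01 CPM in the Magi2-high members, at 52.7 to 72.5 CPM in shallower nuclei of the other spermatocyte-like clusters, and at 332, 299 and 301 CPM in the Sertoli-like members of WT replicate 1 and the Dhx37-/- libraries. Usp9x, an X-linked deubiquitinase gene, stood at 10.9 and 14.8 CPM against 75.7 to 134 CPM in the other spermatocyte-like clusters.

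Per nucleus, the Magi2-high cluster had a median X share of 0.141%, with 0.262% at the ninetieth percentile. The early meiotic prophase-like cluster had a median of 0.262%, the other spermatocyte-like clusters 0.685% and 0.692% (each 0.12% at the tenth percentile, so some of their nuclei were as low), and the Sertoli-like clusters 4.54% and 5.12%. The clusters with the largest shares of members thus lay at both ends of the X scale.

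**Figure D3:**
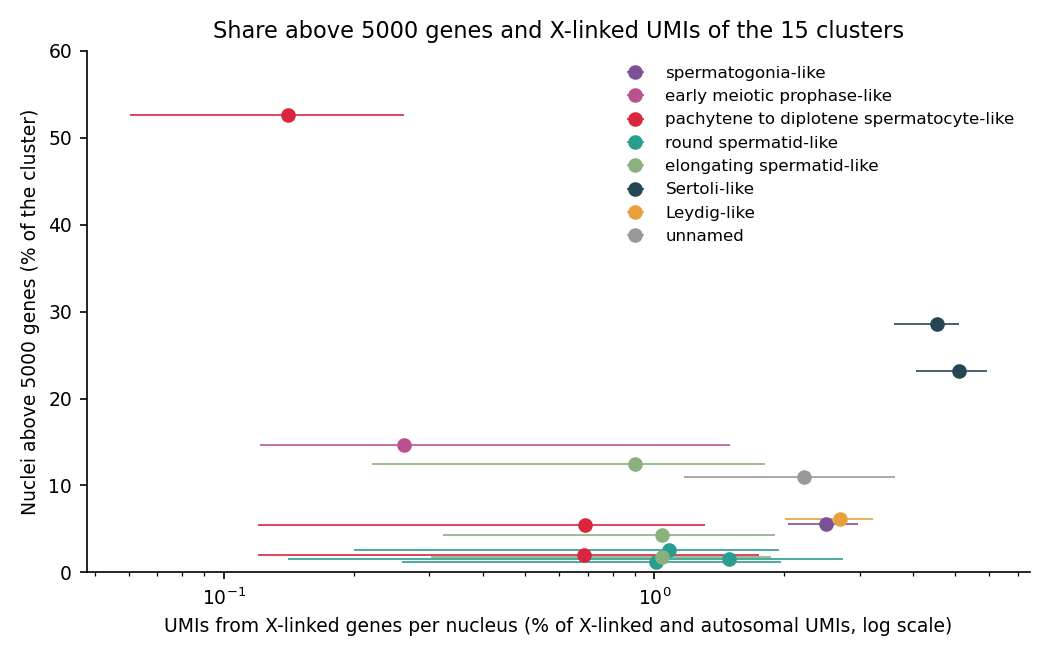
Each point is 1 of the 15 clusters: its share of nuclei above 5000 genes (y axis, percent) against the median share of UMIs from X-linked genes per nucleus after thinning (x axis, percent, log scale), with lines from the tenth to the ninetieth percentile over nuclei. The Magi2-high cluster stands alone at 52.6% and 0.141%, and the Sertoli-like clusters follow at 28.6% and 23.2% with 4.54% and 5.12%.

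Members of the Magi2-high cluster had a median of 18176.5 UMIs in Dhx37-/- replicate 1 and 17650 UMIs in Dhx37-/- replicate 2, above the median of 15270 and 15683.5 UMIs for all members of those libraries. Thinned to 5000 UMIs they showed 2717.5 and 2765 genes, against 2785.5 and 2804 in the nuclei of the same cluster below the limit and 2921 and 2871 in all members. They carried few doublet calls: Scrublet called 1 of 171 (0.585%).

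Whether WT held the same nuclei at lower depth was examined by assigning each nucleus of at least 1000 and under 3000 genes to the cluster with the nearest expression profile, a step added after the data had been seen. Counted with the clustered nuclei, the Magi2-high cluster then held 4 of 9320 nuclei of 1000 genes or more in WT replicate 1 (0.0429%, interval 0.0117 to 0.11%) and 0 of 7868 in WT replicate 2, where the upper bound was 0.0469%. In the Dhx37-/- libraries it held 103 of 8121 (1.27%, 1.04 to 1.54%) and 229 of 9851 (2.32%, 2.04 to 2.64%). Of these nuclei, 2, 0, 5 and 4 had under 3000 genes. The early meiotic prophase-like cluster held 20, 2, 186 and 409 nuclei, or 0.215, 0.0254, 2.29 and 4.15%. The 2 Sertoli-like clusters held 0.333, 0.114, 1.65 and 1.45%, and 0.397, 0.114, 0.69 and 1.55%. How well the profiles place nuclei of so few genes was not tested.

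**Figure D4:**
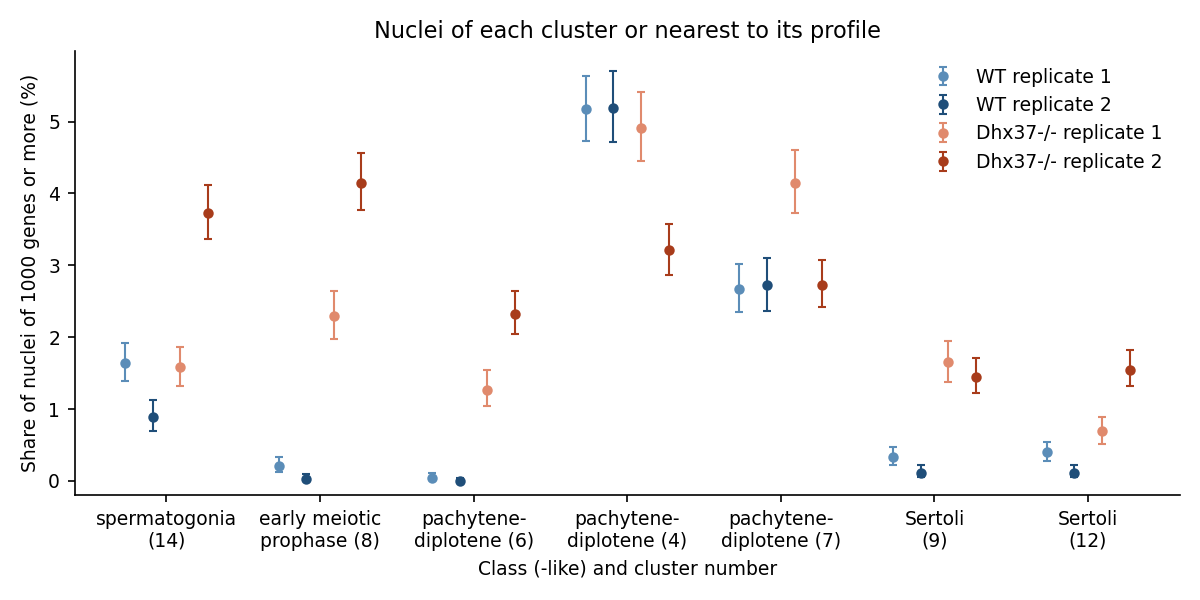
Share of nuclei of 1000 genes or more (y axis, percent) that belong to each of 7 clusters or are nearest to its profile, by library, with exact 95% intervals for counting error. For the Magi2-high cluster (number 6) the WT points lie at 0.0429% and 0% and the Dhx37-/- points at 1.27% and 2.32%, whereas the other spermatocyte-like clusters (numbers 4 and 7) hold nuclei of all 4 libraries.

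Sertoli-like nuclei were the second class of members. The 2 Sertoli-like clusters had 28.6% and 23.2% of their nuclei above 5000 genes over all libraries. In the first the share was 17.4 and 14.3% in WT, of 23 and 7 nuclei, and 38.3 and 22.9% in Dhx37-/-. In the second it was 7.41 and 0% in WT, of 27 and 5 nuclei, and 27.1 and 25.7% in Dhx37-/-. Wt1, the transcription factor that maintains Sertoli cell identity, stood at 720 CPM in the 6 members of WT replicate 1 and at 787 and 826 CPM in the members of the Dhx37-/- libraries. Sox9 stood at 37.9, 78.6 and 91.3 CPM, Fshr, the receptor of follicle-stimulating hormone, at 199, 297 and 233 CPM, and Cldn11, of the blood-testis barrier, at 142, 146 and 173 CPM. WT replicate 2 had a single Sertoli-like member and is left out of these levels. The 6 members of WT replicate 1 summed to 105513 UMIs, so its low levels, such as that of Sox9, rest on few UMIs. All 12 Sertoli markers were measured, and together they made up 0.235, 0.261, 0.272 and 0.27% of the UMIs of Sertoli-like members in the order of the libraries given above.

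Dhx37 itself had 4, 1, 28 and 64 UMIs over all members of the 4 libraries, which is 18.5, 5.04, 8.62 and 12.6 CPM. In Sertoli-like members it had 2 UMIs in WT replicate 1 and 7 and 12 in the Dhx37-/- libraries. These counts were too few to compare, and nuclear reads from outside exon 2 do not check the deletion.

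Early meiotic prophase-like members, 9 and 31 of them from the Dhx37-/- libraries and 1 from WT, carried Hormad1, a chromosome axis protein gene, at 441 and 525 CPM and Spo11, whose product makes the meiotic DNA breaks, at 152 and 153 CPM. Meiob, a recombination factor gene, stood at 82.6 and 236 CPM. Of the 10 markers of this class, 6 were raised in the cluster, Hormad1, Spo11 and Meiob among them. Hormad1 also averaged 346 CPM in spermatocyte-like members of the Dhx37-/- libraries. Tex15 was not raised, and averaged 256 CPM here against 482 CPM in round spermatid-like members of those libraries. Spermatocyte markers were also high in the early meiotic prophase-like members, with Piwil1 at 503 and 422 CPM. The 12 pachytene to diplotene spermatocyte markers made up 0.369 and 0.35% of their UMIs in the Dhx37-/- libraries, above the 0.188 and 0.214% of the early meiotic prophase markers and above the 0.279 and 0.299% of the same 12 genes in spermatocyte-like members, so the name rests on markers raised against the other clusters and not on their summed level. The name was unstable: at a finer clustering resolution 6 of the 41 kept it, whereas 191 of 194 spermatocyte-like and 130 of 130 Sertoli-like members kept theirs. The elongating spermatid-like name was kept by 46 of 92 members with 30 principal components. The Magi2-high cluster was divided by some settings: the cluster that held most of its 325 nuclei had 189 of them with 30 components, 222 at resolution 1.0 and 316 without thinning, and each of these was named pachytene to diplotene-like.

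Leydig-like members carried Cyp17a1 and Cyp11a1, enzymes of androgen synthesis, at 1200 and 935 CPM and at 1140 and 760 CPM in the Dhx37-/- libraries. Round spermatid-like members carried Acrv1, an acrosomal protein gene, at 488 CPM in WT replicate 2 and at 709 and 649 CPM in the Dhx37-/- libraries. Acrv1 also stood at 277, 397, 356 and 404 CPM in elongating spermatid-like members.

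**Figure D5:**
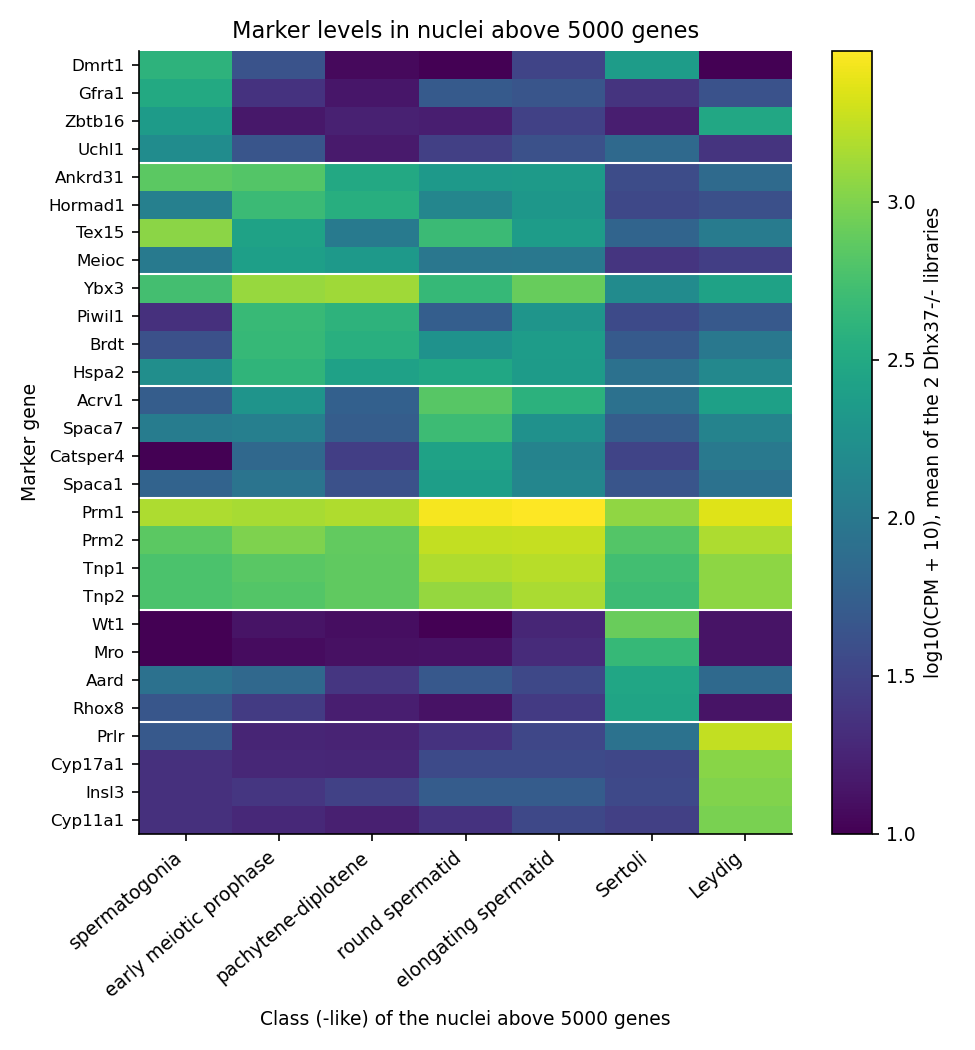
Level of the 4 markers with the highest level in each class (rows, in blocks by class) in the nuclei above 5000 genes of each class (columns), as log10 of the mean CPM of the Dhx37-/- libraries plus 10. Wt1, Mro, Aard and Rhox8 are highest in the Sertoli-like column and Prlr, Cyp17a1, Insl3 and Cyp11a1 in the Leydig-like column, while Prm1, Prm2, Tnp1 and Tnp2 are at 492 CPM or more in every column.

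Protamine and transition protein RNA was found in the members of every class. Prm1 stood at 1520, 1290, 2230 and 1400 CPM over all members, and even the Magi2-high members held 1520 and 1420 CPM. The 5 genes of this group made up 1.37, 3.02, 5.32 and 3.66% of the UMIs of near-empty droplets in the 4 libraries and 0.425, 0.363, 0.555 and 0.395% of the UMIs of members. A barcode was said to hold a class when, after thinning, its markers had at least 3 UMIs from at least 2 genes. Since nearly all barcodes held the elongating spermatid markers, that class was left out of the pairs, a choice made after the data had been seen.

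By that measure 69.2% and 73.3% of WT members and 57.4% and 50.3% of Dhx37-/- members held markers of a pair of classes that are not neighbours in the germ line, against 64.3 and 62.0% and 63.7 and 59.1% of nuclei of 3000 to 5000 genes. Round spermatid markers were held by 76.9 and 93.3% of WT members and by 44.1 and 43.7% of Dhx37-/- members. Sertoli markers were held by 46.2, 6.67, 30.4 and 22.8% of members and by 9.41, 2.31, 14.3 and 14.6% of nuclei of 3000 to 5000 genes. Such a pair was held by 22.2% of spermatocyte-like members and 48.7% of shallower spermatocyte-like nuclei, by 70.0 and 57.4% in the Sertoli-like class and by 100 and 86.7% in the Leydig-like class. Classes cannot be compared by this measure, since some markers are shared: the spermatogonia marker Zbtb16 averaged 299 CPM in Leydig-like and Dmrt1 222 CPM in Sertoli-like members of the Dhx37-/- libraries.

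Scrublet, which scores each barcode against simulated doublets, called 7 of 13, 12 of 15, 52 of 204 and 72 of 302 members, or 53.8, 80.0, 25.5 and 23.8%. In nuclei of 3000 to 5000 genes it called 37.3, 34.6, 16.6 and 17.9%, and in all barcodes of 500 genes or more 3.26 to 4.68%. In the Dhx37-/- libraries it called 4.76 and 1.54% of spermatocyte-like, 10.5 and 13.6% of Sertoli-like and 11.1 and 22.6% of early meiotic prophase-like members. It called 69.2 and 75.0% of elongating spermatid-like and 77.8 and 75.0% of Leydig-like members there. Round spermatid-like members differed between libraries, with 1 of 12 and 7 of 11 called in Dhx37-/- and 5 of 6 in WT replicate 2. Uncalled members numbered 6, 3, 152 and 230.

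Against nuclei of 3000 to 5000 genes of the same library, the summed members had few called genes at the settings chosen, though many more without called doublets. Called here means at least 2-fold apart in the same direction in every library compared, on log2 of CPM plus 10, among genes whose mean over both sides reached 20 CPM. A gene low on 1 side can pass that minimum through the other side alone, and the contrast has no test because gene number chose both sides. Of 9657 genes, 2 were higher (0.0207%) and 7 lower (0.0725%) in all 4 libraries. Without barcodes called as doublets, which leaves 6 and 3 WT members, 15 were higher and 388 lower, and against nuclei of 4000 to 5000 genes 0 were called. Map2k5, a kinase of the ERK5 pathway, stood at 153, 70.5, 182 and 303 CPM in members and at 60.3, 27.2, 73.4 and 127 CPM in the nuclei below the limit, a log2 difference of 1.11 to 1.21. The other was Gm50166, with log2 differences of 1.07 to 1.59. Among the lower genes were Hsd17b3, an enzyme of testosterone synthesis, at 50.9, 0, 24.3 and 22.2 CPM in members against 124, 17.4, 106 and 69.4 CPM, and Bhmt, at 18.5, 0, 16.6 and 48.7 against 58.6, 10.2, 56.1 and 171 CPM. Both had 0 UMIs in WT replicate 2, so their calls rest there on the absence of a few UMIs. Both were leading genes of the Leydig-like cluster. Leydig-like nuclei made up 15.4, 0, 4.41 and 3.97% of members and 9.77, 1.88, 9.24 and 8.27% of clustered nuclei below the limit. Round spermatid-like nuclei made up a smaller share of members in every library. Of the lower genes, 2 were highest in the Leydig-like and 3 in a round spermatid-like cluster. An elongating spermatid-like and a spermatocyte-like cluster held 1 each. The part of class makeup in these calls was not tested.

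Within the spermatocyte-like class, in the Dhx37-/- libraries that alone held enough members, 19 of 8050 genes were higher (0.236%) and 294 lower (3.65%) above the limit. Against nuclei of 4000 to 5000 genes 0 were higher and 68 lower, so the calls of higher genes were lost there. The 2 sides differed in makeup: 171 of 193 nuclei above the limit and 152 of 607 below it lay in the Magi2-high cluster. Higher genes included Macrod2, at 4390 and 4700 CPM against 1240 and 2240 CPM, and Cdh2, the N-cadherin gene, at 346 and 353 CPM against 105 and 152 CPM. Lower genes were led by Alg13, at 25.7 and 23.3 CPM against 168 and 156 CPM, and Syt16, at 39.4 and 18.1 CPM against 234 and 132 CPM.

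The lower genes included Huwe1, Fmr1, Thoc2, Usp9x, Dmd and Phf6 of the fixed list of X-linked genes. Phf6 stood at 5.14 and 9.07 CPM above the limit and at 82.9 and 63.1 CPM below it, and Fmr1 at 13.7 and 15.6 against 68.2 and 60.8 CPM. Such genes passed the minimum of 20 CPM through the shallower nuclei, so no share of X-linked genes is read from this contrast. None of the 14 measured synaptonemal complex and crossover genes, the 16 piRNA pathway genes or the 19 meiotic division genes was called in either direction. Over all 8050 genes 0.236% were called higher and 3.65% lower, so the absence of calls in lists this short says little about them.

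Within the Magi2-high cluster alone, 1 of 7377 genes was higher (0.0136%) and 0 lower (0%) above the limit, the higher one being 4930434J06Rik, named after its value was seen. The part of cluster makeup in the contrast over the whole class was not tested. Piwil1 stood there at 369 and 444 CPM above and 422 and 486 CPM below the limit, Magi2 at 9730 and 9110 against 8420 and 8630 CPM, and Huwe1 at 10.9 and 6.01 against 0 and 3.5 CPM.

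In the Sertoli-like class, 42 of 7872 genes were higher (0.534%) and 0 lower (0%) above the limit in both Dhx37-/- libraries. None of the 12 Sertoli markers was called, which says little about them when 0.534% of all genes were called. The largest differences were in 4933436I20Rik, Fsip2l, Gm8251, Ppfia2 and Sgip1, with Gm8251 at 228 and 239 CPM against 75.2 and 66.7 CPM. Hydin, of the central apparatus of motile cilia, stood at 98.0 and 81.4 against 32.1 and 14.6 CPM, and Ttll8, a tubulin glycylase gene, at 92.3 and 128 against 30.1 and 39.9 CPM. Of the 42 genes, 0 had their highest level in a Sertoli-like cluster, whereas 22 were highest in a round spermatid-like, 11 in an elongating spermatid-like and 8 in a spermatocyte-like cluster. Of the 7830 genes not called, 750, 958 and 1542 were highest in those classes and 2141 in a Sertoli-like cluster. Some of the 42, such as 4933436I20Rik at 39.9 and 63.3 against 6.02 and 14.1 CPM, passed the minimum through the members alone, so these counts are a description. Scrublet called 12.2% of these members and 2.89% of the Sertoli-like nuclei below the limit, and 26 genes were higher without called barcodes.

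The genotypes were then compared in the summed UMIs of all members, 4 libraries in all. These sums mix classes whose shares of members differed between the genotypes, and levels within a class were not tested. The WT sums held 216268 and 198501 UMIs. Of 15839 genes, 0 were higher (0%) and 0 lower (0%) in Dhx37-/- at an adjusted p under 0.05 by the quasi-likelihood test of edgeR, adjusted by Benjamini-Hochberg. At an unadjusted p under 0.05 the same test counted 1753 higher and 1578 lower, and DESeq2 called 193 higher and 325 lower. The edgeR count rose to 70 without Scrublet doublets and to 151 with a replicate block. It stayed at 0 without TMM, without the Magi2-high cluster and at more than 4500 genes. The median log2 difference over all genes was 0.11.

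The 10 genes with the smallest p each had an adjusted p of 0.0804 in edgeR. Their adjusted p was 7.08e-06 to 0.000738 in DESeq2 and 0.000399 to 0.0379 in edgeR with a replicate block, and 0.132 in edgeR at more than 4500 genes and 0.453 without the Magi2-high cluster. Without Scrublet doublets, which leaves 6 and 3 WT members, it was 0.00251 to 0.036 for the 5 higher genes and 0.327 to 0.677 for 4 of the lower ones, and Gm28710 was not tested. Stox1, a winged-helix gene, had 9.25 and 10.1 CPM in WT members, from 2 UMIs in each library, and 196 and 310 CPM in Dhx37-/- members, a log2 difference of 4.78 ± 0.61 (SE). Catsperd had 69.4 and 30.2 CPM in WT and 483 and 482 CPM in Dhx37-/-, a log2 difference of 3.32 ± 0.49. Thoc7, of the THO mRNA export complex, had 27.7 and 15.1 CPM in WT and 201 and 225 CPM in Dhx37-/-. Gm43262 and Gm21269 had log2 differences of 3.16 and 3.65. Stox1 was among the leading genes of the early meiotic prophase-like cluster, at 703.2 CPM there against 50.96 CPM elsewhere. Catsperd and Gm21269 were among those of the Magi2-high cluster. Without the Magi2-high cluster the differences were 3.78 for Stox1, 1.42 for Catsperd, 2.37 for Thoc7, 1.88 for Gm43262 and 2.18 for Gm21269. Without Scrublet doublets they were 2.66 for Catsperd, 2.74 for Thoc7, 4.22 for Gm43262 and 4.23 for Gm21269, and Stox1 then had 0 UMIs in both WT libraries, so no size is given for it.

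In the other direction, Gm28710 stood at 92.5 and 70.5 CPM in WT and at 8.01 and 5.5 CPM in Dhx37-/- (log2 difference -3.55 ± 0.47). It was among the leading genes of a round spermatid-like cluster, at 194.2 CPM there against 17.48 CPM elsewhere. Slc39a12, a zinc transporter gene, stood at 74 and 116 CPM against 11.1 and 13.2 CPM. Gm38551, Ctcflos and Nell1 had log2 differences of -2.88, -2.66 and -2.35. Without Scrublet doublets the log2 difference was -1.21 for Slc39a12, -1.93 for Gm38551, -2.15 for Ctcflos and -1.43 for Nell1.

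By fixed list, 0 of 21 measured synaptonemal complex and crossover genes, 0 of 16 piRNA pathway genes and 0 of 20 meiotic division genes were called, with median log2 differences of 0.89, 1.41 and 0.75 beside 0.11 over all genes. The 12 round spermatid markers had a median of -1. As a share of UMIs, the synaptonemal list made up 0.117 and 0.164% in WT members and 0.19 and 0.246% in Dhx37-/- members (exact permutation p = 0.33). The piRNA list made up 0.134 and 0.191% and then 0.224 and 0.288% (exact permutation p = 0.33). Near-empty droplets held 0.229 to 0.259% of the synaptonemal list and 0.242 to 0.277% of the piRNA list.

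The lists of p53 targets and of ribosome biogenesis, to which Dhx37 belongs, were also summed. The p53 target list made up 0.0573 and 0.0398% of WT and 0.0492 and 0.0512% of Dhx37-/- members' UMIs, with overlapping groups (exact permutation p = 1.0). Ribosome biogenesis genes made up 0.0855 and 0.0635% and then 0.101 and 0.0929% (exact permutation p = 0.33), and without Scrublet doublets the difference was -0.000141. In nuclei of 3000 to 5000 genes the same genes made up 0.0685% ± 0.00417 in WT and 0.0899% ± 0.00141 in Dhx37-/- (SD, n = 2 each), a similar difference. The 29 matched X-linked genes of the list made up 0.418 and 0.166% in WT, on both sides of the 0.298 and 0.234% in Dhx37-/- (exact permutation p = 1.0). Within the largest class of members the genotypes could not be compared by a test, since WT held 0 and 1 of its 194 nuclei.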

How the data were processed

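Nuclei of whole testis were profiled on the 10x Genomics platform. The authors deposited unfiltered matrices of UMI counts per gene and barcode; the file headers name Cell Ranger 7.2.0, the methods another release, and the genome build differs between the methods and the submitters' notes, so no coordinates are given. From the counts, barcodes of 3000 genes or more were thinned to 5000 UMIs (3 to 49 shallower ones per library left out, none above 5000 genes) and clustered in Seurat 5.3.0 (2000 variable genes, 10 components, 20 neighbours, resolution 0.5). Each cluster took the marker list with the highest mean log2 fold over the other clusters. It was named when at least 3 of those markers reached 20 CPM and 1.5 times the other clusters. It stayed unnamed where another list had more of its 10 leading genes, or where at least 3 of these were mitochondrial. A shallow cluster also needed a marker of its list among them. Doublets were called with Scrublet in scanpy 1.11.5 at an expected rate of 0.06 and kept. Library sums were tested with edgeR 4.0.16 (TMM, filterByExpr) on 4 libraries, and DESeq2 1.42.0 as an alternative; the test was checked on simulated counts. Chromosomes came from GENCODE vM21 for 52081 of 55357 gene IDs. Named genes were markers, the leading genes of clusters with at least 20 members, the genes of largest fold or smallest p, and list members. Members, lists and naming limits were chosen with earlier results of these data known. SEs are the log2 difference over the root of F.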

Additional observations from a re-analysis of the deposited data

How the results depend on the processing

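The excess of members in Dhx37-/- (2.07 percentage points) was 3.47 at more than 4500 genes and 0.62 at more than 6000, and within the spread with a mitochondrial limit of 5% or without Scrublet doublets. The spermatocyte-like excess (33.6 points) kept its direction in all 5 alternatives, from 24.4 to 34.8. The Sertoli-like difference (-1.51) turned to 4.67 at more than 4500 genes and was -29.2 without Scrublet doublets. Without Scrublet doublets the early meiotic prophase-like, elongating spermatid-like and Leydig-like differences turned to -0.484, 6.34 and 1.31, with 6 and 3 WT members left; the cause was not tested. Shares above 6000 genes could not be given, since WT replicate 2 held 0.

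The share of X-linked genes (difference -0.0256) turned to 0.00112 at more than 4500 genes and was -0.188 without Scrublet doublets. It ran from -0.151 to 0.1 when 1 library was left out. Nuclear noncoding RNAs turned to 0.258 at more than 4500 genes and 0.171 without doublets, p53 targets to -0.00034, -0.0115 and -0.00714 to 0.0104 with 1 library left out, and ribosome biogenesis to -0.000141 without doublets. The other lists recomputed kept their direction, and cytosolic ribosomal proteins stayed at 0.0426 to 0.0642. With 1 library left out, round spermatid markers ran from -0.128 to -0.0206, protamines from 0.00138 to 0.161, the synaptonemal list from 0.0489 to 0.105 and the piRNA list from 0.0611 to 0.125. Without doublets, round spermatid markers were at -0.0122 and DNA replication at 0.00256. Pair holding (-17.4 points) was -10.1 at 5 UMIs, -4.77 unthinned and -55.7 without doublets.

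Genes called above against below the limit (9) became 403 without doublets, 31 and 0 with 1 and 50 CPM added, and 0 against nuclei of 4000 to 5000 genes. In the spermatocyte-like class 313 became 578, 42 and 68 under the last 3 settings. In the Sertoli-like class 42 became 26, 110, 2 and 27 under all 4. In the Magi2-high cluster, 1 became 0, 3, 0 and 0, and 2 without the filter on low values.

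The genotype contrast (0 genes by edgeR) gave 518 by DESeq2, 1156 without a filter, 70 without doublets and 151 with a replicate block, and 0 without TMM or the Magi2-high cluster or at more than 4500 genes. Leaving out 1 library gave 0 to 2921, the lone library of a genotype being assumed to vary like the others. Replicate numbers gave no sign of pairing (correlation of deviations -0.0176). The planned contrast in the spermatocyte-like class could not be fitted.

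The 13 and 15 WT members sum to 216268 and 198501 UMIs, so a gene near 10 CPM, such as Stox1, rests on 2 UMIs a library.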

Other observations

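Among the highest barcodes, more than 8000 genes were found in 0, 0, 2 and 4 nuclei of the 4 libraries. They were 2 spermatocyte-like, 2 elongating spermatid-like, 1 early meiotic prophase-like and 1 Sertoli-like nuclei, and Scrublet called 2 of the 6. Above 6000 genes stood 2, 0, 57 and 87 nuclei, of which 19 and 35 in the Dhx37-/- libraries were spermatocyte-like.

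Spermatogonia-like members were 0, 0, 4 and 2 nuclei, with 0 doublet calls. In these, Dmrt1, a transcription factor gene of spermatogonia and Sertoli cells, averaged 386 CPM over the Dhx37-/- libraries, against 222 CPM in Sertoli-like members and 1.51 CPM in spermatocyte-like members. Tex15 averaged 1100 CPM and Ankrd31 702 CPM in the spermatogonia-like members, both above the early meiotic prophase-like members at 256 and 642 CPM. Zbtb16 averaged 220 CPM in them and 299 CPM in Leydig-like members.

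The list of cytosolic ribosomal proteins made up 0.112 and 0.118% of UMIs in WT members and 0.18 and 0.169% in Dhx37-/- members (exact permutation p = 0.33), and 0.343, 0.696, 0.943 and 0.868% of UMIs in near-empty droplets, in the order of the libraries. In nuclei of 3000 to 5000 genes they made up 0.129% ± 0.0205 in WT and 0.203% ± 0.00354 in Dhx37-/- (SD, n = 2 each). The list of nuclear noncoding RNAs made up 0.484 and 0.627% of UMIs in members of the Magi2-high cluster, against 0.132 to 0.175% in shallower nuclei of the other spermatocyte-like clusters, and Malat1 alone stood at 4520 and 5820 CPM in those members. Over all members the list made up more, 1.4% ± 0.099 in WT and 1.33% ± 0.0636 in Dhx37-/- (SD, n = 2 each). Within the Magi2-high cluster its 4 measured genes had median log2 differences of -0.22 and -0.03 above against below the limit. DNA replication genes made up 0.019 and 0.0116% of UMIs in WT members and 0.0254 and 0.0242% in Dhx37-/- members (exact permutation p = 0.33). In nuclei of 3000 to 5000 genes they made up 0.0154% ± 0.00141 in WT and 0.0228% ± 0.00198 in Dhx37-/- (SD, n = 2 each), a similar difference.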
